A study of Arabidopsis thaliana with 14 samples.

Results

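Expansins are small secreted proteins that loosen plant cell walls. They do not cut wall polymers, and they let the wall creep under turgor, most readily in the acid walls of growing cells. The alpha expansins (EXPA) are the founding branch of the superfamily. Expansin-like A proteins (EXLA) share their domain layout, but no wall-loosening activity has been established for them. EXPA7 and EXPA18 are root hair genes of Arabidopsis thaliana, active where the hair cell bulges and elongates.

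The 8 genes described here are EXPA4 (AT2G39700), EXPA7 (AT1G12560), EXPA8 (AT2G40610), EXPA9 (AT5G02260), EXPA15 (AT2G03090), EXPA16 (AT3G55500), EXPA18 (AT1G62980) and EXLA1 (AT3G45970), each read by 1 probe set of the Affymetrix ATH1 array. They are 8 of 13286 genes that have a probe set of their own and a place in the gene table, which lie among 22746 probe sets in all without the array's controls, and 8 of 18 expansins so measured; a further 2 expansin probe sets are assigned to several genes, and the gene table lists 36 expansin genes by symbol. The genes were taken by name from the superfamily and chosen by their changes in these same arrays, which were known beforehand: all 8 passed the test in at least 1 of 5 comparisons, against 5 of the 10 other expansins. Their levels and changes in those comparisons are therefore a description and support no claim about the family. In 1 of the 5 comparisons, the csn5a-1 mutant against the Columbia wild type, 32.9% of all probe sets passed. The share of all probe sets passing in at least 1 of the 5 was not computed. No sequence of the 8 genes was used.

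The study profiled RNA from whole seedlings of A. thaliana on 14 arrays. CSN5A and CSN8 are subunits of the COP9 signalosome, the complex that removes the ubiquitin-like protein NEDD8 from cullin ubiquitin ligases. The 6 groups were csn5a-1 (3 arrays), the Columbia wild type (3), the CSN8 mutant with DTT (2), the Wassilewskija wild type with DTT (2), the CSN8 mutant without DTT (2) and Wassilewskija without DTT (2). DTT is dithiothreitol, a reducing agent that disturbs disulfide bond formation in the endoplasmic reticulum. All seedlings were 12 days old and grew on agar plates with MS salts under 16 h of white light and 8 h of darkness. The labels give neither the dose nor the duration of DTT, and the treatment text shared by all samples speaks of no further treatment. They also do not give the ecotype in which the CSN8 mutation lies; Wassilewskija is the wild type it was set against, since both share batches. The mutated genes have no single-gene probe set in the annotation used here, and the genotype labels could not be checked on those genes.

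The values are log2 expression levels made by robust multi-array averaging (RMA), and a change is a log2 difference of group means with its standard error (SE) from limma. A change passed the test where its Benjamini-Hochberg adjusted p over all 22746 probe sets was under 0.05. The fit behind it held group means only. Batch was left out of it and entered as a block in an alternative fit. Levels of different probe sets are not comparable, so levels are compared within a gene only. The csn5a-1 and Columbia arrays and the 8 others look normalized separately: the median gap between the sorted values of 2 arrays was 0.012 to 0.076 within a set and 0.472 to 0.534 between the sets. Ecotype, normalization and set cannot be told apart in levels set across them. Arrays of 1 group correlated at 0.978 to 0.996, and precision is limited by having 2 or 3 arrays in a group. Groups of 2 arrays can fail to overlap where the change is small. The expansin EXPB5 did so at −0.07 ± 0.13 in CSN8 without DTT. The share of all probe sets without overlap was not counted, so overlap is given as a description only. The signal of the array's 3′ actin control over its 5′ actin control, a sign of RNA quality, was 1.85 to 2.64 log2 units in csn5a-1 and 0.939 to 1.21 in Columbia. It was 2.81 on the CSN8 array of batch 1 and 1.40 to 1.99 on the 7 others of that set. The same difference for the GAPDH control overlapped between csn5a-1 (0.429 to 0.499) and Columbia (0.38 to 0.546). It was 0.341 on the CSN8 array of batch 1 and −0.105 to 0.246 on the 7 others. In whole seedlings, fewer cells of a type and less RNA per cell cannot be told apart. Replicates of Columbia and csn5a-1 are called biological by the labels; for the other groups the labels give only batch 1 and batch 2.

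**Figure D1:**
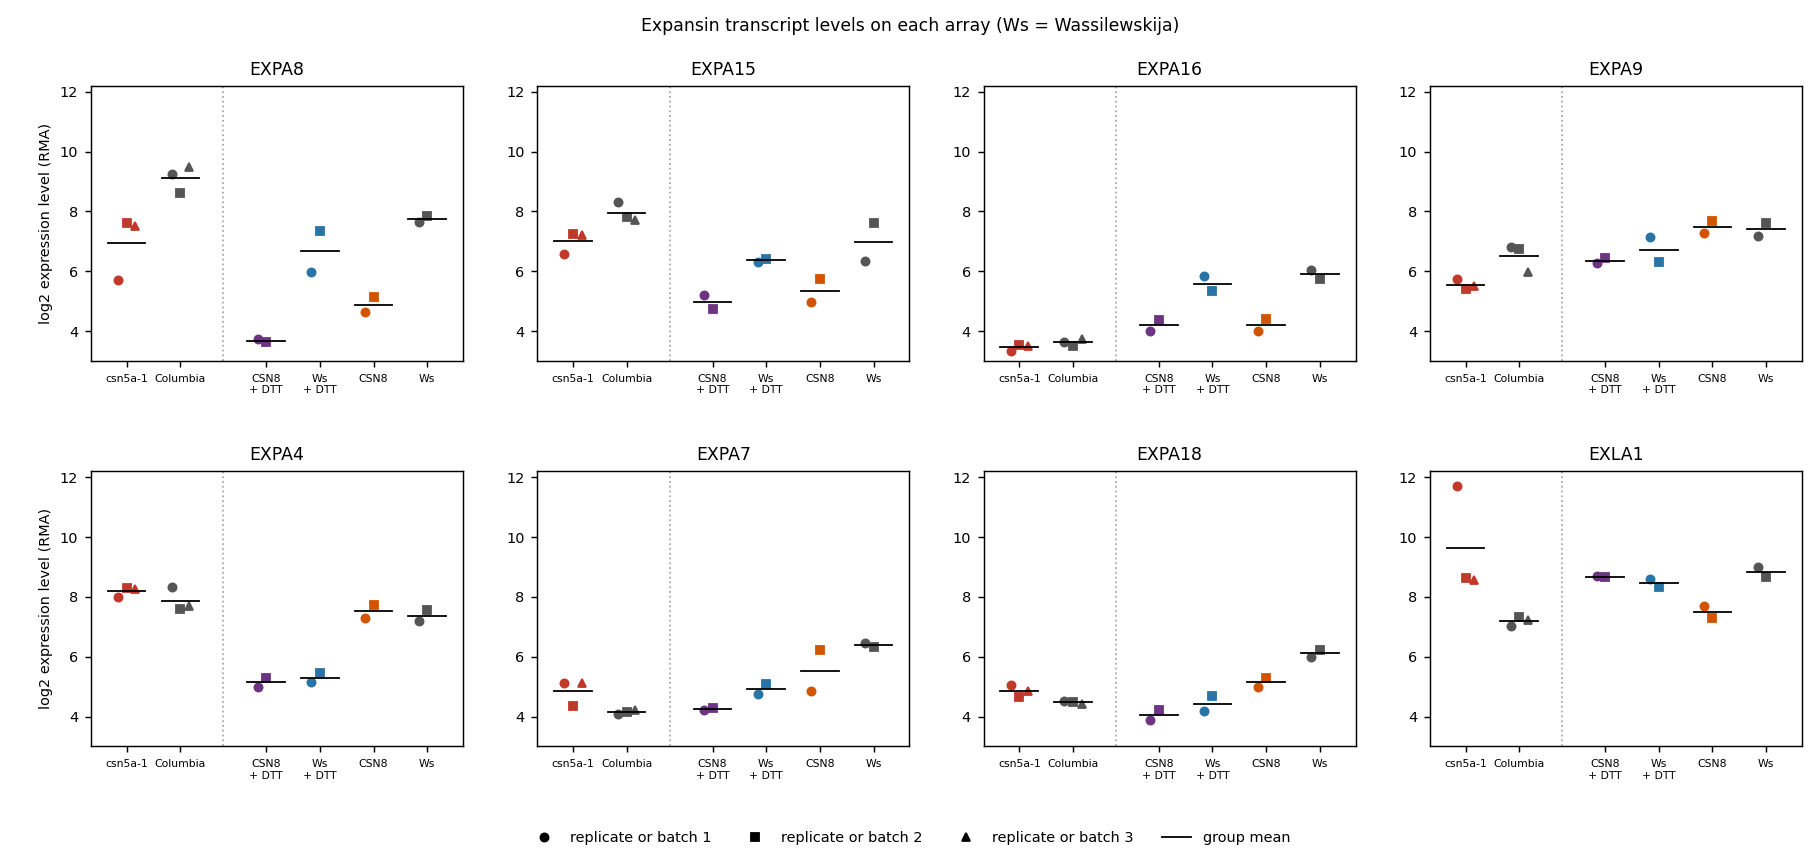
Log2 expression level of each of the 8 expansin genes on every array, by group, with the group mean as a line; a dotted line parts the csn5a-1 and Columbia arrays from the separately normalized CSN8 and Wassilewskija arrays. EXPA8 lies lower in both mutants than in their wild types, EXPA4 lies near 5 with DTT and above 7 without it, and EXLA1 is at 11.72 on 1 csn5a-1 array.

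Among the alpha expansins, EXPA8 had the largest decrease in both mutants. Its level was 5.70, 7.61 and 7.51 in csn5a-1 seedlings, against 9.24, 8.61 and 9.49 in Columbia. Every csn5a-1 array lay below every Columbia array, and csn5a-1 replicate 1 was the lowest of the 6 by a wide margin. The change was −2.17 ± 0.50 (SE, n = 3 each), 4.51-fold lower in csn5a-1, and it passed the test. Without csn5a-1 replicate 1 it was −1.55, and it passed with any 1 of the 6 arrays left out.

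In the CSN8 mutant without DTT, EXPA8 was at 4.63 and 5.15, against 7.64 and 7.86 in Wassilewskija. With DTT it was at 3.73 and 3.63 in CSN8, against 5.99 and 7.35 in Wassilewskija. The CSN8 values with DTT were dim, at percentiles 30.7 to 32.6 of the probe sets. The 4 groups did not overlap, in the descending order Wassilewskija (mean 7.75), Wassilewskija with DTT (6.67), CSN8 (4.89) and CSN8 with DTT (3.68). The change in CSN8 was −2.86 ± 0.42 without DTT and −2.99 ± 0.42 with DTT (SE, n = 2 each), 7.25-fold and 7.94-fold lower, and both passed the test. Taken within batches 1 and 2, the values were −3.01 and −2.71 without DTT, and −2.26 and −3.72 with DTT. The change with DTT itself, −1.08 ± 0.42 in Wassilewskija and −1.21 ± 0.42 in CSN8, passed in neither genotype. In Wassilewskija it was −1.65 and −0.50 within batches 1 and 2, and −0.40 to −1.76 with 1 array left out, the ends coming without the batch 1 and the batch 2 array with DTT. The call in CSN8 without DTT was lost when either Wassilewskija array or the CSN8 array of batch 1 was left out (−2.60 to −2.97), and the call with DTT when either CSN8 array was left out (−2.94 and −3.04).

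EXPA15 and EXPA16 were also lower in CSN8. EXPA15 was at 5.22 and 4.75 in CSN8 with DTT, against 6.32 and 6.41 in Wassilewskija with DTT, and at 4.96 and 5.74 in CSN8, against 6.33 and 7.62 in Wassilewskija. The genotypes did not overlap in either state, but the Wassilewskija arrays without DTT differed from each other by more than a log2 unit. The changes, −1.38 ± 0.45 with DTT and −1.62 ± 0.45 without, did not pass; the same change without DTT passed in the fit with batch as a block and in that of all 14 arrays. Without the Wassilewskija array of batch 1 it was −2.27 and passed. In csn5a-1 EXPA15 was at 6.59, 7.24 and 7.22, against 8.32, 7.81 and 7.70 in Columbia. The change of −0.93 ± 0.23, with no overlap, passed the test, also with any 1 array left out; in the fit of all 14 arrays it did not pass.

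EXPA16 had 4.02 and 4.36 in CSN8 with DTT, against 5.83 and 5.34 in Wassilewskija with DTT. Without DTT it had 4.0 and 4.42 in CSN8, against 6.06 and 5.73 in Wassilewskija. The CSN8 arrays were the lower ones in both states and hardly differed with DTT, at −0.02 ± 0.25. EXPA16 fell in CSN8, with changes of −1.69 ± 0.25 without DTT and −1.39 ± 0.25 with it, both past the test. Leaving out the Wassilewskija or the CSN8 array of batch 1 ended the call without DTT (−1.52 and −1.47), and leaving out any 1 array ended that with DTT (−1.15 to −1.64). In the other set it was at 3.33, 3.55 and 3.52 in csn5a-1, against 3.65, 3.5 and 3.73 in Columbia. These are overlapping values at the dim end of the arrays, at percentiles 20.1 to 27.0 of the probe sets, against 55.1 to 59.8 in Wassilewskija. The change of −0.16 ± 0.12 did not pass.

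EXPA9 fell in csn5a-1. It had 5.73, 5.42 and 5.51 in csn5a-1, against 6.82, 6.76 and 5.99 in Columbia, with no overlap and a change of −0.97 ± 0.23 past the test. The call was lost without replicate 2 of either group, at −0.90 without that of csn5a-1 and −0.85 without that of Columbia. In the CSN8 mutant it had 7.28 and 7.68, against 7.18 and 7.63 in Wassilewskija; these arrays interleave, and the change was 0.07 ± 0.31. The difference between the CSN8 change and the csn5a-1 change, 1.04 ± 0.41, did not pass the test; without Columbia replicate 3 it was 1.31 and passed. With DTT EXPA9 had 6.28 and 6.43 in CSN8 and 7.14 and 6.30 in Wassilewskija. Its changes with DTT, −1.13 ± 0.31 in CSN8 and −0.69 ± 0.31 in Wassilewskija, did not pass. The batches gave −0.99 and −1.26 in CSN8 and −0.04 and −1.33 in Wassilewskija, where the change was −0.27 to −1.10 with 1 array left out, the ends coming without the batch 2 and the batch 1 array with DTT.

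EXPA4 fell with DTT in both genotypes. In CSN8 it had 4.98 and 5.30 with DTT, against 7.29 and 7.74 without. In Wassilewskija it had 5.16 and 5.44 with DTT, against 7.20 and 7.55 without. All 4 arrays with DTT lay below all 4 without, while the genotypes overlapped in both states. The change was −2.37 ± 0.23 in CSN8 and −2.08 ± 0.23 in Wassilewskija (SE, n = 2 each), 5.19-fold and 4.22-fold lower with DTT, and both passed. The batches gave −2.32 and −2.43 in CSN8 and −2.04 and −2.11 in Wassilewskija. With 1 array left out the change was −1.90 to −2.25 in Wassilewskija, never past the test, and in CSN8 the call was lost without the batch 1 array of either state (−2.60 and −2.21). With all arrays, no mutant comparison of EXPA4 passed the test: the change was 0.14 ± 0.23 in CSN8 without DTT, −0.16 ± 0.23 with DTT, and 0.31 ± 0.21 in csn5a-1, where the arrays had 7.98, 8.31 and 8.26, against 8.34, 7.58 and 7.69 in Columbia. Without Columbia replicate 1 the csn5a-1 change was 0.55 and passed.

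The root hair expansins EXPA7 and EXPA18 were high in Wassilewskija without DTT and lower in the 3 other groups of that set. EXPA18 had 4.18 and 4.68 in Wassilewskija with DTT, against 5.99 and 6.24 without DTT, a change of −1.69 ± 0.23 that passed; with any 1 array left out it was −1.44 to −1.94 and did not pass. In CSN8 it had 3.89 and 4.22 with DTT, against 5.0 and 5.29 without. Here too the states did not overlap, but the change of −1.09 ± 0.23 did not pass; the same change passed with batch as a block and in the fit of all 14 arrays. Within batches it was −1.11 and −1.07 in CSN8 and −1.82 and −1.56 in Wassilewskija. The CSN8 change was −0.97 ± 0.23 without DTT and −0.37 ± 0.23 with DTT, neither past the test, and that without DTT passed with the block, under either other normalization and in the fit of all 14 arrays.

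EXPA7 followed the same order of group means with more scatter. It had 4.23 and 4.29 in CSN8 with DTT and 4.76 and 5.09 in Wassilewskija with DTT. Without DTT it had 4.86 and 6.21 in CSN8, against 6.46 and 6.34 in Wassilewskija. The CSN8 arrays without DTT stood far apart, the lower being that of batch 1, whose actin control ratio was the 2.81 given above. The part of that array in the result was not tested; within batches the CSN8 change was −1.60 and −0.13, and without the CSN8 array of batch 2 it was −1.54 and passed. None of the 4 changes of EXPA7 in this set passed the test, at −1.47 ± 0.40 with DTT in Wassilewskija, −1.28 ± 0.40 with DTT in CSN8, −0.87 ± 0.40 in CSN8 without DTT and −0.67 ± 0.40 in CSN8 with DTT. The change with DTT in CSN8 was −0.63 and −1.92 within batches 1 and 2.

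In csn5a-1 both root hair genes had higher means than in Columbia. EXPA7 had 5.12, 4.34 and 5.13 in csn5a-1, against 4.10, 4.16 and 4.21 in Columbia; it rose by 0.70 ± 0.21, past the test. That call was lost without any 1 array other than csn5a-1 replicate 2 (0.57 to 0.73), and in the fit of all 14 arrays. EXPA18 had 5.07, 4.64 and 4.87, against 4.51, 4.49 and 4.41 in Columbia, and its change of 0.39 ± 0.13 did not pass; without csn5a-1 replicate 2 it was 0.50 and passed. Neither gene overlapped between the groups. In Columbia, EXPA7 lay at percentiles 31.8 to 33.3 of its arrays and EXPA18 at 35.5 to 36.4, against 63.3 to 64.9 and 59.0 to 61.7 in Wassilewskija. In CSN8 with DTT they lay at 38.5 to 39.2 and 34.6 to 38.4.

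**Figure D2:**
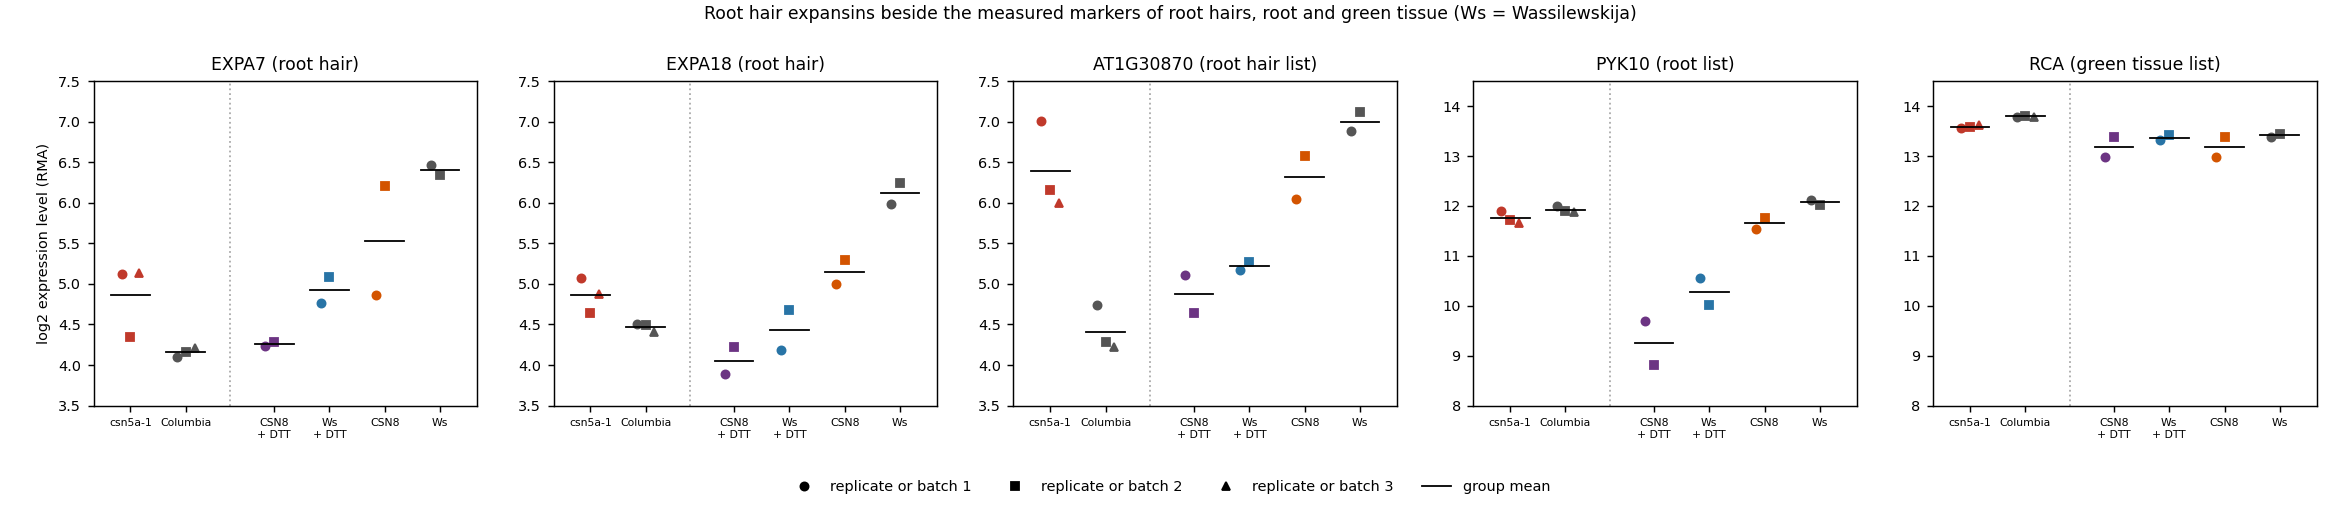
Log2 expression level on every array of the root hair expansins EXPA7 and EXPA18 beside AT1G30870, PYK10 and RCA. The latter are the genes of lists for root hairs, roots and green tissue that had a single-gene probe set in the annotation. Lines are group means and the vertical scales differ between the first 3 panels and the last 2. AT1G30870 is higher in csn5a-1 than in Columbia and lower with DTT than without, PYK10 is lower with DTT, and RCA lies between 12.97 and 13.81 on all arrays.

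Markers of root hairs, roots and green tissue were read beside these genes. Of 29 root hair loci listed besides EXPA7 and EXPA18, 1 had a single-gene probe set in the annotation used here, AT1G30870. That annotation gave no gene for 8730 of the 22746 probe sets, so the array may still carry probe sets for other listed loci. It had 7.01, 6.16 and 6.0 in csn5a-1, against 4.74, 4.28 and 4.22 in Columbia, and rose by 1.98 ± 0.27 (limma, Benjamini-Hochberg adjusted p = 0.0015). With DTT it fell, by limma, with changes of −1.78 ± 0.24 in Wassilewskija (adjusted p = 0.0461) and −1.44 ± 0.24 in CSN8 (adjusted p = 0.0474). The levels behind these were 5.11 and 4.64 in CSN8 with DTT, 5.17 and 5.27 in Wassilewskija with DTT, 6.05 and 6.58 in CSN8 and 6.88 and 7.12 in Wassilewskija, and both DTT calls were lost with any 1 array left out. Its change in CSN8 without DTT was −0.68 ± 0.24 (adjusted p = 0.157).

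Of 10 root loci 1 had a single-gene probe set in the same annotation, PYK10, the abundant root β-glucosidase of endoplasmic reticulum bodies. It had 9.69 and 8.81 in CSN8 with DTT, against 11.54 and 11.76 in CSN8 without, a change of −2.40 ± 0.31 (limma, adjusted p = 0.0272). In Wassilewskija it had 10.56 and 10.01 with DTT, against 12.12 and 12.02 without (−1.78 ± 0.31, limma adjusted p = 0.108), which passed with batch as a block and in the fit of all 14 arrays. Between genotypes it differed by −1.04 ± 0.31 in CSN8 with DTT against Wassilewskija with DTT, with −0.87 and −1.20 in the batches and no overlap; this did not pass (limma adjusted p = 0.134), but passed in the fit of all 14 arrays. It differed by −0.42 in CSN8 without DTT and by −0.16 in csn5a-1, neither past the test. The call with DTT in CSN8 was lost without either CSN8 array lacking DTT or without the batch 1 array with DTT. Of 11 green tissue loci 1 had a single-gene probe set there, RCA, which encodes Rubisco activase. Its changes ran from −0.25 to 0.05 and none passed. Each list thus rests on 1 gene, and the part of root or root hair content in the values of EXPA7, EXPA18 and EXPA4 was not tested.

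EXLA1 changed in opposite directions in the mutants. It had 11.72, 8.62 and 8.56 in csn5a-1, against 7.03, 7.34 and 7.21 in Columbia. All 3 csn5a-1 arrays were above all Columbia arrays, and replicate 1 stood far above the other csn5a-1 arrays. EXLA1 rose by 2.44 ± 0.77, or 5.42-fold, past the test; without csn5a-1 replicate 1 the change was 1.40 and passed, and without any 1 of the Columbia arrays it was 2.36 to 2.51 and did not. On that same csn5a-1 array EXLA2 had 8.30, against 5.44 and 5.28 on the others, and EXLA3 had 4.98, against 3.57 and 3.80. EXLA3 is the next protein-coding gene to EXLA1 on chromosome 3. The actin control ratio of that array was 2.64, against 2.36 and 1.85 on the other csn5a-1 arrays. Its GAPDH control ratio was 0.499, against 0.47 and 0.429. The part of RNA quality in these values was not tested.

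In the other set EXLA1 had 7.68 and 7.28 in CSN8, against 9.0 and 8.68 in Wassilewskija, and fell by 1.36 ± 0.20, past the test. That call was lost without the Wassilewskija array of batch 1 (−1.20) and in the fit of all 14 arrays. With DTT it had 8.70 and 8.65 in CSN8, against 8.58 and 8.32 in Wassilewskija, a difference of 0.22 ± 0.20 that did not pass. The CSN8 arrays without DTT were thus the lowest of the 8, and the other 3 groups lay within 8.32 to 9.0. EXLA1 rose with DTT in CSN8 by 1.19 ± 0.20, 2.29-fold and past the test, with 1.01 and 1.37 in the batches. The call was lost with any 1 array left out (0.99 to 1.40), with arrays centred on their median (1.20) and in the fit of all 14 arrays. In Wassilewskija its change with DTT was −0.39 ± 0.20, with −0.42 and −0.36 in the batches, and did not pass.

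**Figure D3:**
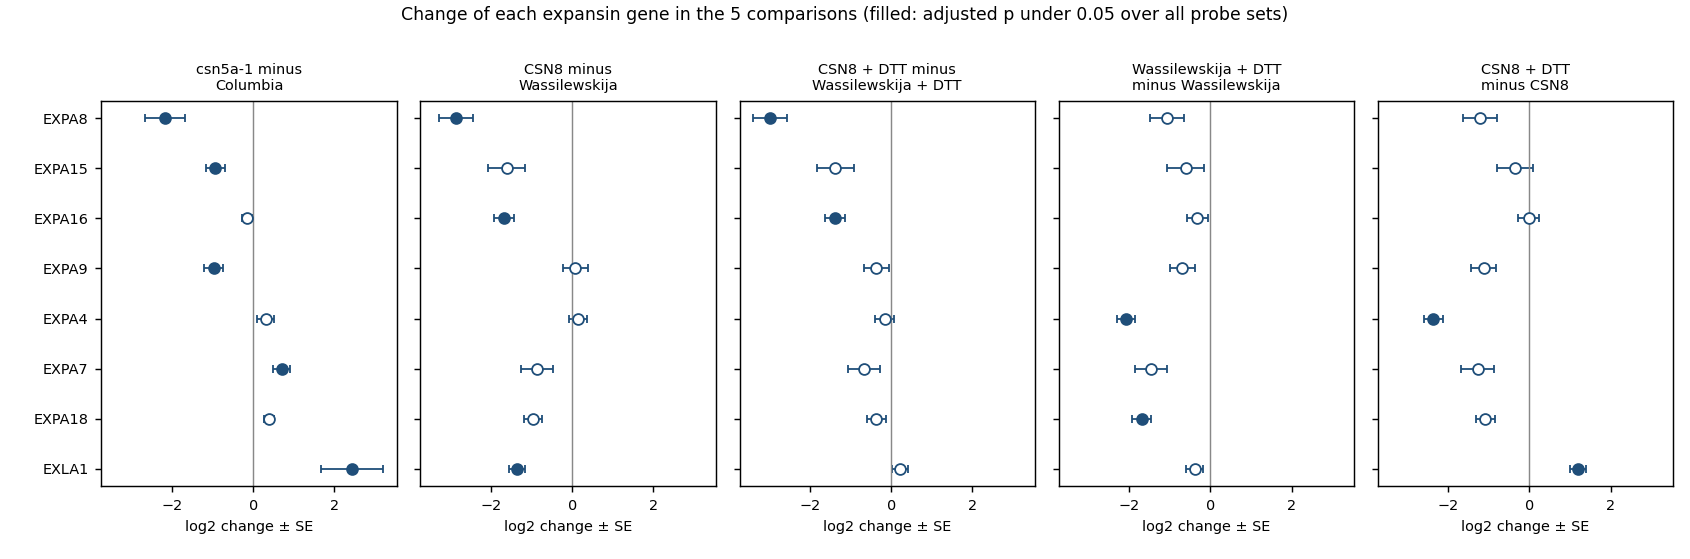
Log2 change ± SE (limma) of each expansin gene in the 5 comparisons, with filled points where the adjusted p over all probe sets is under 0.05. EXPA8 is lower in each of the 3 mutant comparisons, EXPA4 falls in both DTT comparisons, and EXLA1 is the only gene of the 8 with filled points on both sides of 0.

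Counted over the 8 genes, 2 rose and 3 fell past the test in csn5a-1, where 32.9% of all probe sets passed, 16.0% higher and 16.8% lower. In CSN8 without DTT 3 fell, with 5.83% of all probe sets passing, 2.84% higher and 2.99% lower. In CSN8 against Wassilewskija, both with DTT, 2 fell, with 4.13% passing, 2.08% higher and 2.05% lower. With DTT 2 fell in Wassilewskija, where 0.365% passed, 0.185% higher and 0.18% lower. In CSN8 1 rose and 1 fell with DTT, where 1.29% passed, 0.686% higher and 0.602% lower. Since the genes were chosen with these comparisons known, nothing is read from their counts against those shares. The median change of the 8 was 0.08 in csn5a-1 (all probe sets −0.04), −1.16 in CSN8 (0.02), −0.52 in CSN8 with DTT (0.03), −0.88 with DTT in Wassilewskija (0.01) and −1.11 with DTT in CSN8 (0.00). All 8 changes with DTT were below 0 in Wassilewskija and 7 of 8 in CSN8, EXLA1 being the exception. Of the 10 other expansins 8 were below 0 in Wassilewskija and 6 in CSN8. With 1 array left out, EXPA15 turned sign in both genotypes and EXPA16 in CSN8. The share of all probe sets below 0 was not counted, and nothing is read from these directions either. The comparisons within the CSN8 and Wassilewskija set share arrays with each other, so their values are given side by side only.

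Whether the response to DTT depended on genotype was tested as the DTT change in CSN8 minus that in Wassilewskija. In this test 0 of 22746 probe sets passed (0.0%), and 662 had an unadjusted limma p under 0.05. None of the 8 expansins passed and 1 of them had an unadjusted p under 0.05. That gene was EXLA1, with a difference of 1.58 ± 0.28 (95% interval 0.91 to 2.26; limma, Benjamini-Hochberg adjusted p = 0.961). EXPA4 had a difference of −0.30 ± 0.32 (95% interval −1.07 to 0.47) and EXPA18 one of 0.60 ± 0.32 (−0.17 to 1.37). The other 5 ran from −0.44 ± 0.44 for EXPA9 to 0.29 ± 0.36 for EXPA16. Missing the threshold does not show equal responses in the genotypes.

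The CSN8 change without DTT was set against the csn5a-1 change in 1 fit of all 14 arrays, each change taken within its own set. The mutants differ in gene, wild type, set and normalization at once, and these cannot be told apart. In this fit 17.6% of all probe sets passed, 9.49% with a higher and 8.08% with a lower value for CSN8. Of the 8 expansins 4 passed, all with the lower value for CSN8. Since the genes were chosen with both changes known, nothing is read from this count against those shares. The difference was −3.80 ± 1.00 for EXLA1, −1.57 ± 0.47 for EXPA7, −1.53 ± 0.27 for EXPA16 and −1.36 ± 0.26 for EXPA18. It was −0.68 ± 0.76 for EXPA8 (95% interval −2.35 to 0.98) and did not pass, and likewise for EXPA15 (−0.69 ± 0.52) and EXPA4 (−0.17 ± 0.34). AT1G30870 differed in the same direction as the root hair expansins, by −2.66 ± 0.41 (limma adjusted p = 0.00136). Without the CSN8 array of batch 1 the difference for EXPA7 was −0.89 and did not pass, and without that of batch 2 it was −2.24 and passed. For EXPA7 the call was lost without any 1 array other than csn5a-1 replicate 2 and the CSN8 array of batch 2. For EXLA1 it was lost without the Wassilewskija array of batch 1 (−3.64) or the CSN8 array of batch 2 (−3.59), while for EXPA16 and EXPA18 it held without any 1 of the 10 arrays compared.

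**Figure D4:**
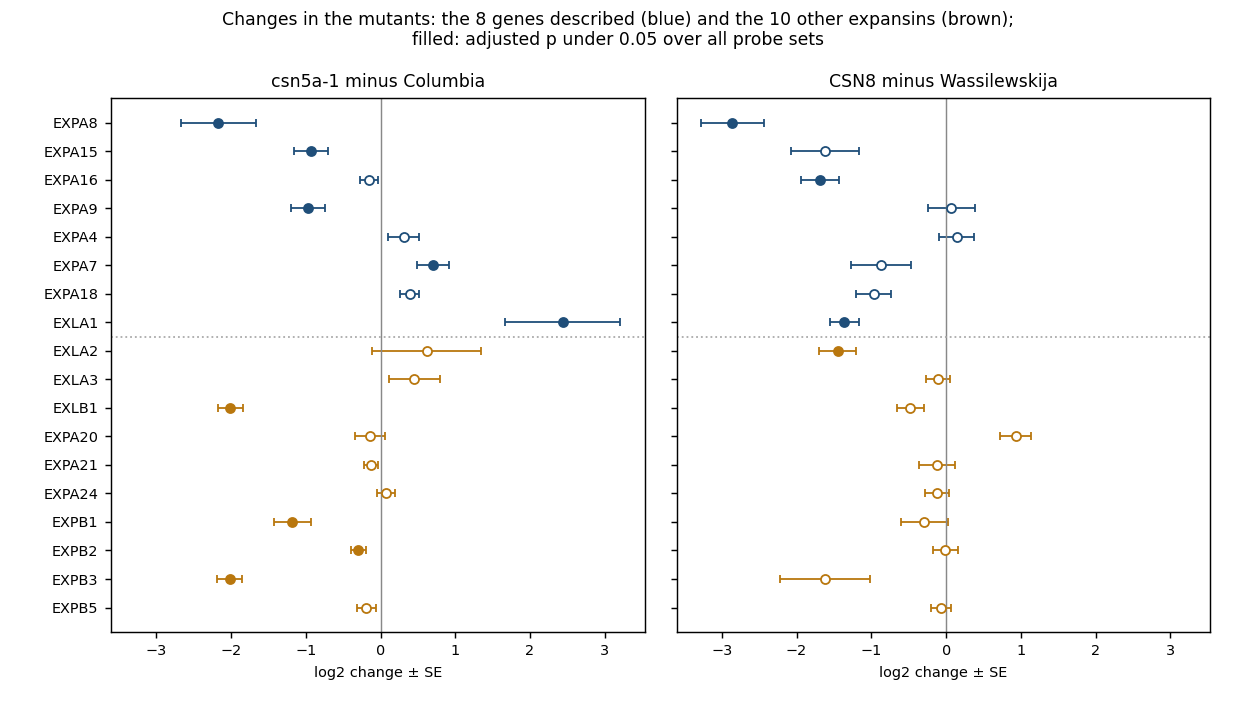
Log2 change ± SE (limma) of the 8 expansin genes described (blue, above the dotted line) and the 10 other expansins with a single-gene probe set (brown) in csn5a-1 against Columbia and in CSN8 against Wassilewskija; filled points have an adjusted p under 0.05. EXPB3, EXLB1 and EXPB1 fall in csn5a-1, and EXLA2 falls in CSN8.

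The 10 other measured expansins were EXPA20, EXPA21 and EXPA24, the beta expansins EXPB1, EXPB2, EXPB3 and EXPB5, and the expansin-like EXLA2, EXLA3 and EXLB1. In csn5a-1 4 of the 10 fell and none rose, where 16.8% of all probe sets passed lower and 16.0% higher. EXPB3 had 6.10, 6.24 and 6.13 in csn5a-1, against 8.46, 7.79 and 8.28 in Columbia (−2.02 ± 0.17). EXLB1 had 5.26, 5.11 and 5.57, against 7.61, 7.11 and 7.23 in Columbia (−2.01 ± 0.17). In both genes the groups were well apart and csn5a-1 replicate 1 lay close to the other csn5a-1 arrays. EXPB1 (−1.18 ± 0.25) and EXPB2 (−0.30 ± 0.10) also fell, the call for EXPB2 being lost with replicate number as a block and with any 1 array left out. In CSN8 1 of the 10 fell without DTT, EXLA2 at 5.21 and 5.54 against 7.07 and 6.58 in Wassilewskija (−1.45 ± 0.25), and 1 fell against Wassilewskija with DTT, EXLB1 (−0.93 ± 0.18), where 2.99% and 2.05% of all probe sets passed lower. The call of EXLA2 was lost without either batch 1 array, and that of EXLB1 without any 1 array. With DTT none of the 10 passed in Wassilewskija or CSN8, where 0.365% and 1.29% of all probe sets passed. An unadjusted limma p under 0.05 was found for 0 and 3 of the 10, against 1482 and 2573 of all 22746 probe sets.

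Xyloglucan endotransglucosylase/hydrolases (XTH) cut and rejoin the xyloglucan that ties cellulose microfibrils together. In the annotation used here 9 had a single-gene probe set. In csn5a-1 2 rose, XTH19 by 2.44 ± 0.50 and XTH16 by 2.00 ± 0.42, and XTH32 fell (−3.47 ± 0.15); 3 of 9 is close to the 32.9% of all probe sets that passed there. XTH32 had 6.93, 7.43 and 7.39 in csn5a-1, against 10.81, 10.61 and 10.74 in Columbia. In CSN8 without DTT it went the other way, with 9.56 and 10.08 against 8.70 and 8.51 in Wassilewskija (1.22 ± 0.26), while XTH20 fell (−1.13 ± 0.19), where 5.83% of all probe sets passed. XTH19 was higher in CSN8 with DTT than in Wassilewskija with DTT, by 2.02 ± 0.26, the only XTH of the 9 to pass there, against 4.13% of all probe sets. With DTT 1 of 9 passed in CSN8, XTH18 (1.91 ± 0.32), against 1.29% of all probe sets, and none in Wassilewskija (0.365%). In Wassilewskija 4 of 9 had an unadjusted limma p under 0.05, as did 1482 of all 22746 probe sets. The CSN8 call of XTH32 was lost without any 1 of the 4 arrays, that of XTH20 without either CSN8 array or the Wassilewskija array of batch 2, that of XTH19 without either Wassilewskija array with DTT, and that of XTH18 without either CSN8 array lacking DTT or the batch 1 array with DTT. The replicate of csn5a-1 that was highest for EXLA1 was also the highest for XTH16 (9.46, against 7.81 and 7.78), XTH18 (10.93, against 7.54 and 7.55), XTH19 (10.35, against 8.97 and 8.89) and XTH33 (7.32, against 4.44 and 4.18). No cellulose synthase gene of the CESA family had a single-gene probe set in that annotation. It gave no gene for 8730 probe sets, so the array may still carry probe sets for CESA genes.

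Likeness between genes was described by Pearson's r over the 14 arrays after each set was centred on its own mean; the arrays share genotypes, treatments and batches, so r measures shared group differences as well as scatter. EXPA7 and EXPA18 had r = 0.92, and EXPA18 was the most similar to EXPA7 of all single-gene probe sets, ahead of AT4G13580 (0.903) and AT5G65530 (0.902). For EXPA18 the nearest were AT4G13580 (0.970), AT4G23820 (0.928) and AT3G07010 (0.924). EXPA4 was closest to AT1G52060 (0.942), AT3G11800 (0.940) and RALFL31 (0.918), a gene of the RALF-like peptide family, and had r = 0.84 with EXPA18 and 0.76 with EXPA7.

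Among EXPA8, EXPA15 and EXPA16, r was 0.90 for EXPA8 and EXPA15, 0.79 for EXPA8 and EXPA16, and 0.77 for EXPA15 and EXPA16. Above 0.9 lay 34 genes for EXPA8, 15 for EXPA15 and 37 for EXPA16, so EXPA16 was less like the others than many genes were. The nearest genes were AT3G06330 (0.957), AT5G45670 (0.955) and AT2G42220 (0.949) for EXPA8. They were AT3G10080 (0.951), AT2G28330 (0.934) and AT2G28060 (0.932) for EXPA15, and AT4G35750 (0.967), AT2G05540 (0.954) and AT4G00750 (0.954) for EXPA16. EXPA9 was nearest to AT3G42400 (0.926), AT1G18980 (0.922) and AT3G62730 (0.906). EXLA1 had r between −0.46, with EXPA9, and 0.27, with EXPA7, and its nearest genes were AT3G59080 (0.963), AT2G24600 (0.951) and AT3G57930 (0.947). Its level was 11.72 on csn5a-1 replicate 1, against 8.62 and 8.56 on the other csn5a-1 arrays. That array weighs heavily in the r values of EXLA1, which were not computed without it.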

How the data were processed

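The authors' deposited values are log2 RMA expression levels per probe set, RMA being named in the submitters' processing notes; the program that ran it is not given in the sources used here. The table held 22810 probe sets, of which 64 controls were left out. Exactly 1 gene was given for 13513 probe sets, several for 503 and none for 8730. Columns were matched to samples by their headings. Group means were fitted with limma 3.58.1 under R 4.3.3, followed by contrasts and eBayes: 1 fit of the 6 csn5a-1 and Columbia arrays, 1 of the 8 others, whose 4 groups share 1 estimate of the spread, and 1 of all 14 for the difference between the mutant changes. Tests were two-sided with Benjamini-Hochberg adjustment over 22746 probe sets, threshold 0.05. The fitting was also run on simulated arrays with independent noise and no batch effect, which cannot show how it handles batches. The p-values set a change against the spread of arrays around their group means. That spread is pooled over the groups of a fit and moderated by eBayes over all probe sets. In the CSN8 and Wassilewskija set it includes differences between batches. With 2 or 3 arrays a group, it may be technical where the labels name only a batch.

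The expansin genes, the lists (31 root hair, 10 root and 11 green tissue loci, XTH and CESA by symbol) and the tests were chosen with earlier results of these data known. Named genes are the 8, the 10 other expansins, the 3 most similar genes to each of the 8 and up to 3 listed genes per comparison past the threshold; EXLA2, EXLA3 and the XTH levels on 1 csn5a-1 array were named after their values were seen. Batch labels pair the 8 arrays. Deviations from group means correlated at 0.07 to 0.57 for equal batch numbers, the 0.07 being that of Wassilewskija and CSN8 without DTT. The main fit held group means only and ignored this pairing, so its calls differ from those with batch as a block, given as an alternative. For csn5a-1 and Columbia the correlation was 0.04 to 0.07 and the labels name no batch, so equal numbers were not taken as pairs. Promoter motif searches were planned and not run. Alternatives were the replicate block, median centring, quantile normalization within a set, a variance trend, a mean level of at least 5, 1 fit of all 14 arrays, and each array left out in turn.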

Additional observations from a re-analysis of the deposited data

Results flagged for a closer look

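The CSN8 change minus the csn5a-1 change was singled out for EXLA1 (−3.80 ± 1.00), EXPA7 (−1.57 ± 0.47), EXPA16 (−1.53 ± 0.27) and EXPA18 (−1.36 ± 0.26). The limma test of that difference passed for each, as it did for 17.6% of all probe sets. For EXLA1, EXPA7 and EXPA18 the changes point in opposite directions: in csn5a-1 2.44, 0.70 and 0.39, and in CSN8 −1.36, −0.87 and −0.97, in this order of genes. Only the changes of EXLA1 passed the test in both mutants. EXPA7 passed in csn5a-1 only, and its CSN8 change was −1.60 and −0.13 within batches 1 and 2. EXPA18 passed in neither. For EXPA16 the csn5a-1 change was −0.16 at a dim level, and the CSN8 change was −1.69. Without csn5a-1 replicate 1 the difference for EXLA1 was −2.75. These mutants were compared with different wild types on separately normalized arrays, so gene, ecotype and set cannot be told apart.

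The DTT change of EXLA1 in CSN8 minus that in Wassilewskija, 1.58 ± 0.28, was singled out for non-overlapping arrays in opposite directions. Both CSN8 arrays with DTT lay above both without, and both Wassilewskija arrays with DTT lay below both without. The test of this difference did not pass after adjustment over all probe sets (limma adjusted p = 0.961). The share of all probe sets with such a pattern was not counted, and groups of 2 arrays can fail to overlap at small changes. EXLA1 was also chosen with both DTT comparisons known, so this flag is a description only.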

How the results depend on the processing

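Of the values of the 8 expansins over the 7 tests, 299 of 312 kept their direction and their side of the threshold under the alternatives that kept all arrays, 8 came to pass the threshold, 5 ceased to and none turned. With 1 array left out, 252 of 320 stayed, 46 ceased to pass, 5 came to pass and 17 turned sign, all of the 17 in changes that did not pass. Of 14 calls of these genes, 10 were kept in every alternative with all arrays, and 2, EXPA8 and EXPA15 in csn5a-1, with every array left out in turn. Leaving out 1 array leaves a group of the CSN8 and Wassilewskija set with a lone array, assumed to vary like the others.

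Batch as a replicate block gave 5 expansins past the threshold in CSN8 without DTT, against 3, adding EXPA15 and EXPA18. With the block all probe sets past it numbered 2706 in CSN8 (1327 without the block), 2045 in CSN8 with DTT against Wassilewskija with DTT (940), 186 with DTT in Wassilewskija (83) and 705 with DTT in CSN8 (293). In 1 fit of all 14 arrays they numbered 2746, 2080, 258 and 755 in the same order, and the expansins in csn5a-1 numbered 3, against 5. For csn5a-1 the replicate block changed the call of none of the 8. With a mean level of at least 5, which removes dim expansins from the test, 1 expansin passed in CSN8 with DTT against Wassilewskija with DTT, 1 with DTT in Wassilewskija and 1 in the difference between the mutants, against 2, 2 and 4. With arrays centred on their median 1 passed with DTT in CSN8, against 2.

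With 1 array left out, the expansins past the threshold ran from 2 to 5 in csn5a-1 (all probe sets 5421 to 7221), 1 to 4 in CSN8 (408 to 1035) and 0 to 1 in CSN8 with DTT against Wassilewskija with DTT (103 to 490). They were 0 with DTT in Wassilewskija (1 to 41), 0 to 1 with DTT in CSN8 (2 to 246), 0 for the genotype dependence of the DTT change (0 to 9) and 2 to 4 for the difference between the mutants (2657 to 3916). The low of 408 came without the CSN8 array of batch 1, and those of 1 and 103 without the batch 2 arrays of Wassilewskija and of Wassilewskija with DTT. Signs turned within these ranges: in CSN8 without DTT, EXPA4 from −0.08 to 0.36 and EXPA9 from −0.15 to 0.30. In CSN8 with DTT against Wassilewskija with DTT, EXPA4 ran from −0.32 to 0.00 and EXPA9 from −0.79 to 0.05. With DTT, EXPA15 ran from −1.25 to 0.04 in Wassilewskija and from −0.75 to 0.02 in CSN8, where EXPA16 ran from −0.23 to 0.19. The genotype dependence of the DTT change ran from −0.41 to 0.89 for EXPA15, −0.48 to 0.87 for EXPA7 and −0.81 to 0.55 for EXPA8. The difference between the mutants for EXPA4 ran from −0.41 to 0.05. Apart from the smaller number of arrays or probe sets tested, the cause was not tested.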
